A study of Mus musculus with 4 samples.

Results

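Interferon-stimulated genes are the genes whose transcripts accumulate in a cell that has met an interferon. The 42 described here were taken as the rows of the gene table that carry the listed symbols in all 4 pools, 42 of the 28692 genes in the files. They are the signal and transcription factors Stat2, Irf7 and Irf9, the Ifit, Isg15 and Usp18 group, the oligoadenylate synthetases, the nucleic acid sensors, the interferon-inducible GTPases, the Parp9, Dtx3l, Parp14 and Trim25 group, the membrane restriction factors and 7 other members. Bone marrow HSPCs (hematopoietic stem and progenitor cells) were sorted as Lin-Sca1+cKit+Flt3- cells from male C57BL/6-CD45.2 mice, for which no further allele and no treatment is named. The young group comprised mice of 2 to 3 months and the aged group mice of 17 to 18 months. Each group was collected as 2 pools of 2 or 3 mice, pool A processed at HalioDX and pool B at TGML on the 10x Chromium 3′ v2 chemistry, and the study asked what aging changes in these cells. In GEO's description field 1 pool of each age (young B, aged A) carries the opposite age, whereas titles and source names do not conflict, and age was taken from the latter. As a measured fact beside this, at least 3 of 8 stem cell markers were found in 39.5% (A) and 39.7% (B) of young cells and in 69.3% (A) and 61.6% (B) of aged cells.

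Interferons bind receptors at the cell surface, and the receptor-bound kinases of the Jak family then phosphorylate transcription factors, Stat2 among them. Type I interferons drive Stat2, together with Irf9, onto the interferon-stimulated response element, whereas interferon gamma acts through the gamma-activated site. The induced proteins restrict viruses at the membrane, in the cytosol and on vacuoles, and in the bone marrow interferon is known to push quiescent hematopoietic stem cells into division. Many of these genes are also transcribed at a low level in stem cells that have met no infection.

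The letters just before the start of 6 members are shown because they carry, or lack, the letters of the interferon-stimulated response element. The sequences are from RefSeq on GRCm38.p6 and hold the 150 bases before the RefSeq transcription start, written 5′ to 3′ on the strand of the gene, with each match to GAAANNGAAA on either strand in capitals. They stand for the Ifit and Isg15 group (Isg15, chr4:156200819-156200968, minus strand; Ifit1, chr19:34640739-34640888, plus strand), the membrane factors (Rsad2, chr12:26456453-26456602, minus strand; Ifitm2, chr7:140955962-140956111, minus strand), the GTPases (Igtp, chr11:58199406-58199555, plus strand) and the oligoadenylate synthetases (Oasl2, chr5:114896784-114896933, plus strand).
Isg15: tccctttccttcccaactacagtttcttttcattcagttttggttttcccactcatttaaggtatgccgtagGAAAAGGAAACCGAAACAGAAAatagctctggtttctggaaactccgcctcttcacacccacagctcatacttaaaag
Ifit1: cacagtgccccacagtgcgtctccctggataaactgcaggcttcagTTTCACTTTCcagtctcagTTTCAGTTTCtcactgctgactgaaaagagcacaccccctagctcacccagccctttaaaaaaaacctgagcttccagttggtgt
Rsad2: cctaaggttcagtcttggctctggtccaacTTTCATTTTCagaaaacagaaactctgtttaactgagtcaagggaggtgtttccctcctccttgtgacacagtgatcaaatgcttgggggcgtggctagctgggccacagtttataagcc
Ifitm2: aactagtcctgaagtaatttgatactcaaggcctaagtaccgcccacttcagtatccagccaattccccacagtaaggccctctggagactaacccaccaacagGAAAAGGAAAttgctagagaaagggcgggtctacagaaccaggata
Igtp: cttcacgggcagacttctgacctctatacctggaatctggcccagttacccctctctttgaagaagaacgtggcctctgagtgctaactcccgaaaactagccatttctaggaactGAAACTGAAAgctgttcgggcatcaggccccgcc
Oasl2: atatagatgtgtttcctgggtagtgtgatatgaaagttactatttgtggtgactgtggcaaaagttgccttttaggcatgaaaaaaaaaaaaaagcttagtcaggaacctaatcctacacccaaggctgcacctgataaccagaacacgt

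In Isg15, 3 overlapping matches began 78, 72 and 66 bases before the start, and in Ifit1 a pair of matches began 104 and 85 bases before it. The single matches of Rsad2, Ifitm2 and Igtp began 120, 46 and 34 bases before their starts, and the window of Oasl2 held none. Other oligoadenylate synthetases differed from it. Oas1a held matches 20 and 14 bases before its start and Oas3 held one 75 bases before, whereas Oasl1 held none. Igtp also held TTCNNNGAA, the letters of the gamma-activated site, beginning 45 bases before its start, in lower case above and overlapping no capital letter. Over windows of 250 bases before to 50 bases after the start, searched on both strands, GAAANNGAAA was found in 19 of the 33 members with a RefSeq window (57.6%) and in 3.99% of all 27025 genes with one. TTCNNNGAA was found in 8 of the 33 members (24.2%) and in 9.55% of all genes. These are letter matches and describe the window only. On GRCm38 the members sat on 14 chromosomes, 8 of them on chromosome 11, among them Ifi47, Igtp, Irgm1 and Irgm2, while Ifit1, Ifit2 and Ifit3 shared chromosome 19 and Ifitm1, Ifitm2 and Ifitm3 shared chromosome 7.

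The files held 15566 barcodes, of which 14915 were kept (5189 and 2244 in the young pools A and B, 3328 and 4154 in the aged ones, the order used for all 4 values of a gene). The pools held between 16399999 and 36446168 UMIs (unique molecular identifiers, one per captured 3′ transcript end) and a median of 5674 to 6719 UMIs per cell. Pairs of pools shared between 10 and 29 barcodes. Of the marker lists for 7 other cell types, the plasma cell list stood apart, with at least 3 of 8 markers in 98 of 3152 cells of aged pool A (3.11%) and in 1 to 7 cells of each other pool. No cell held 3 markers of plasmacytoid dendritic cells, the strongest interferon producers, whose list summed to 103 to 145 CPM (UMIs scaled to the total of the pool) with 3 to 5 of its 8 genes at 0. In each pool 3 or 4 cells held 3 markers of monocytes and macrophages, whose list summed to 32.2 to 47.2 CPM. The gate itself rests on a gene of the same kind, since Ly6a encodes Sca1 and is induced by interferon. Ly6a stood at 164, 254, 232 and 355 CPM, and its aged over young log2 fold was 0.44 (adjusted p = 0.352, edgeR's quasi-likelihood test with Benjamini-Hochberg adjustment).

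The 42 members together took 0.520%, 0.612%, 0.579% and 0.669% of all UMIs. Levels in CPM are of 3′ ends and were not scaled to gene length. The membrane factors made up most of this share. Ifitm1, Ifitm2 and Ifitm3, small membrane proteins that hinder the entry of enveloped viruses, were each found in 93.9%, 94.5% and 95.3% of cells on average after every cell had been thinned to 3000 UMIs. Their levels were 1697, 2198, 1753 and 1761 CPM for Ifitm1, 964, 1089, 939 and 1048 CPM for Ifitm2, and 1204, 1455, 1547 and 2237 CPM for Ifitm3. The 3 genes are close copies of each other, so reads may be divided between them by the counting. Bst2, the tether that holds budding virions on the membrane, stood at 147, 184, 158 and 205 CPM and was found in 39.0% of cells. Over the 42 members the mean level ranged from 0.738 to 1852 CPM with a median of 22.3 CPM, against 13.7 CPM over the 13555 genes tested.

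Outside the membrane factors the levels were lower. Ifi27, a small hydrophobic protein, and Lgals3bp, a secreted galectin-binding protein, stood at 131, 177, 97.0 and 130 CPM and at 99.1, 107, 137 and 183 CPM. Rtp4, a chaperone of membrane receptors, stood at 74.7, 87.1, 85.6 and 166 CPM, with aged pool B apart from the other 3. Of the GTPases, which coat and break vacuoles that hold pathogens, Ifi47 stood at 87.2, 108, 148 and 159 CPM and Gbp7 at 55.4, 40.0, 67.4 and 44.8 CPM. Gbp7 was higher in both A pools than in both B pools, whereas Ifi47 was higher in both aged than in both young pools. Irf9, the DNA-binding part of the type I factor, stood at 53.9, 50.1, 53.6 and 49.2 CPM, and the ubiquitin-like modifier Isg15 at 43.3, 47.9, 32.9 and 50.1 CPM. Both genes overlapped between ages, as did Usp18, the protease that removes Isg15, at 10.6, 11.2, 10.5 and 12.2 CPM. Oasl2, of the oligoadenylate synthetase group, stood at 45.9, 49.2, 48.7 and 47.0 CPM. The RNA sensors Ddx58 (RIG-I) and Ifih1 (MDA5) stood at 22.8, 23.4, 24.5 and 18.2 CPM and at 17.5, 14.8, 27.7 and 22.3 CPM. Ddx58 overlapped between ages and Ifih1 was higher in both aged pools. Dtx3l and Parp9, which form one ubiquitin ligase complex, stood at 28.8, 21.3, 31.7 and 21.3 CPM and at 25.4, 12.1, 26.2 and 12.5 CPM, again with both A pools on top. At the low end were Mx1, at 1.26, 0.366, 0.481 and 0.841 CPM, and Oas2, at 1.54, 1.52, 0.770 and 0.841 CPM. Mx1, a GTPase that blocks influenza virus and is defective in most laboratory strains, was found in 0.217% of thinned cells.

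**Figure D1:**
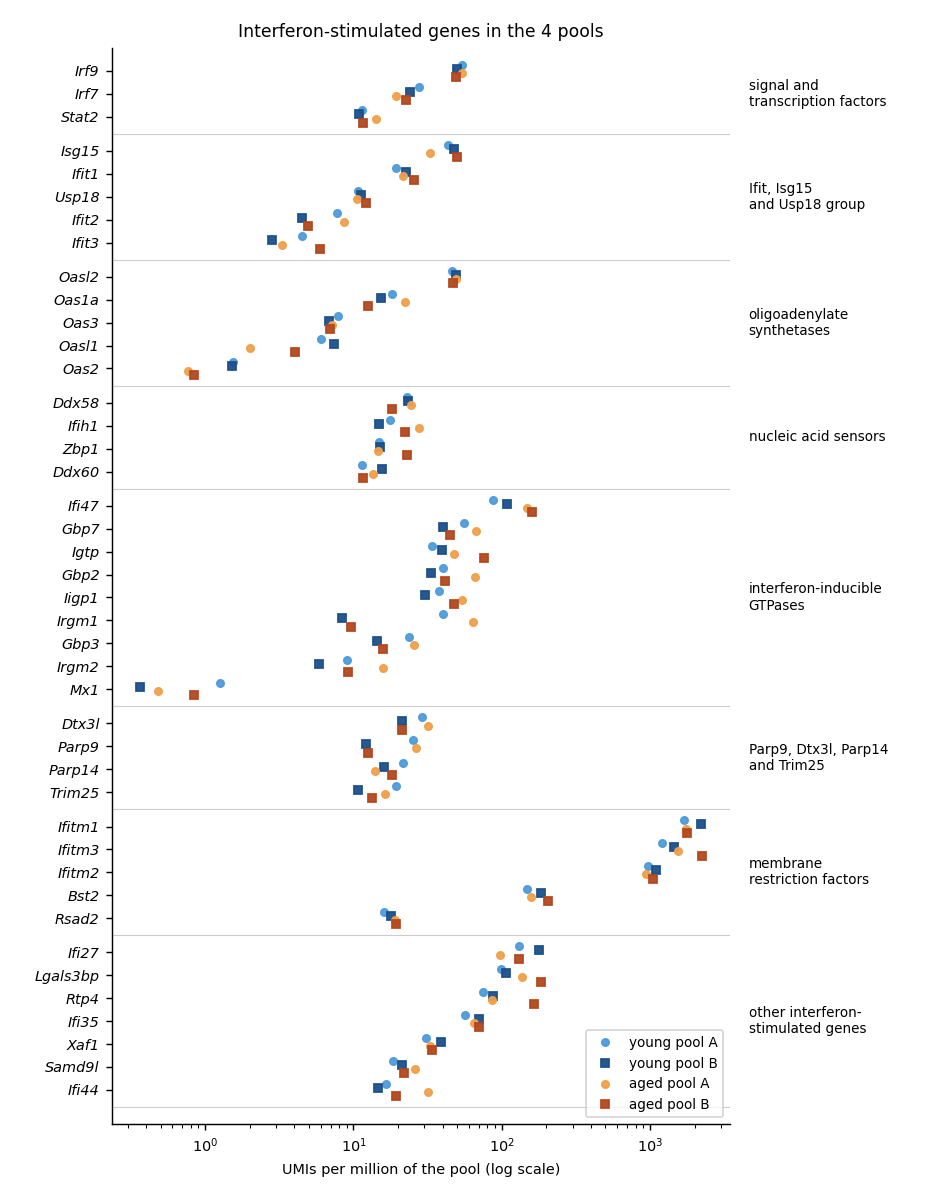
Level of each of the 42 interferon-stimulated genes in the 4 pools, in CPM of the summed UMI counts on a log axis, with 1 point per pool (young and aged, A and B) and the genes grouped by role. The 3 Ifitm genes stand farthest to the right in every pool while Oas2 and Mx1 lie near 1 CPM, and for Irgm1 the pools separate by letter and not by age.

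Age was compared over whole pools first, where fewer cells of a type and less RNA per cell cannot be told apart. None of the 42 members passed the test in either direction (edgeR's quasi-likelihood test with the pool letter as a block, Benjamini-Hochberg adjusted p under 0.05), beside 2.03% of the 13555 genes tested (275 genes). At an unadjusted p under 0.05 there were 10 members (23.8%), beside 16.0% of all genes, and DESeq2 called 0 members, beside 4.01% of all genes, with 5 at an unadjusted p under 0.05 (beside 10.5%). The median log2 fold of the members was 0.06, and that of all genes 0.01. In both aged pools 12 members were above both young pools (28.6%, beside 18.1% of all genes) and 4 were below both (9.52%, beside 13.6%). On both platforms 20 members were higher in the aged pool (47.6%, beside 35.8%), 6 were lower on both (14.3%, beside 24.6%) and 16 went opposite ways. Leaving out aged pool A or aged pool B took the count over all genes from 275 to 4 or 0, and no member passed with any 1 pool left out. The fits with 1 pool left out carry no block for the letter, and in them the log2 folds of 27 of the 42 members took both signs. How many of all genes did so was not counted, so the members cannot be set beside them.

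The GTPases lay on the higher side together, though none passed. Of the 9, 8 were higher in the aged pool on both platforms (beside 35.8% of all genes). Both aged pools were above both young pools for 5 (beside 18.1%). Their median log2 fold was 0.46, with 5 of 9 at an unadjusted p under 0.05 (beside 16.0%) and none past the adjusted one. Irgm2, which keeps its relatives off the cell's own membranes, stood at 9.0, 5.85, 15.7 and 9.22 CPM. Its log2 fold was 0.68 ± 0.18 (SE, n = 2 pools per age) with an adjusted p of 0.160 by edgeR's quasi-likelihood test. Igtp, a GTPase of the same vacuole-coating family, stood at 33.9, 39.5, 47.8 and 75.4 CPM, with both aged pools above both young pools and a log2 fold of 0.66 ± 0.20 (SE), which ran from 0.15 without aged pool B to 1.14 without aged pool A. Igtp and Irgm2 overlap on the same strand of chromosome 11, so their counts may not be independent. Ifi47, which overlaps Olfr56 on the same strand, had a log2 fold of 0.61 ± 0.17 (SE, adjusted p = 0.170 by edgeR's quasi-likelihood test). Iigp1 stood at 37.6, 30.5, 54.2 and 47.5 CPM and Gbp2 at 39.9, 33.4, 65.7 and 41.2 CPM, in both cases without overlap between ages, while Mx1 stood apart from the group with a log2 fold of -0.25. The reads of Iigp1 may be shared with its near copy Gm4951. With 1 pool left out, 6 to 9 of the 9 were positive, with medians between 0.29 and 0.52. Over all genes 6479 to 7590 were positive in these fits, of 13774 to 14316 tested. The widest range of the group was that of Irgm1, whose level followed the pool letter, from -1.15 without aged pool A to 1.81 without young pool A, against 0.40 with all pools.

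The 5 oligoadenylate synthetases had log2 folds between -1.25 and -0.04. Oasl1, known as a brake on Irf7 translation, stood at 6.04, 7.38, 2.02 and 4.06 CPM, both aged pools below both young pools. Its log2 fold of -1.25 ± 0.30 (SE) was the lowest of the 42, with an adjusted p of 0.131 by edgeR's quasi-likelihood test. With no filter on low counts it was the 1 member called, at an adjusted p of 0.0367, over settings that ranged from 0.0367 to 1.0. The fit with no filter called 564 genes higher and 210 lower of 19025. Oas2 stood at 1.54, 1.52, 0.770 and 0.841 CPM with a log2 fold of -0.97 ± 0.43 (SE). Oas1a (18.2, 15.3, 22.1 and 12.5 CPM), Oas3 (7.87, 6.83, 7.17 and 6.97 CPM) and Oasl2 overlapped between ages. Counts of Oas1a may include those of its close copies. Irf7, the factor that amplifies type I interferon production, stood at 27.6, 23.9, 19.2 and 22.4 CPM with a log2 fold of -0.36 ± 0.21 (SE). Stat2, a partner of Irf9 in the type I factor, stood at 11.3, 10.9, 14.1 and 11.6 CPM.

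The remaining groups overlapped more. All 5 genes of the Ifit, Isg15 and Usp18 group, the proteins that bind foreign RNA, modify proteins and remove that modification, overlapped between ages, with a median log2 fold of 0.08. Ifit1 stood at 19.3, 22.6, 21.6 and 25.7 CPM and Ifit3 at 4.53, 2.80, 3.32 and 5.95 CPM, with reads of Ifit3 possibly shared with its copy Ifit3b. Ifi44, a gene of unsettled function, stood at 16.5, 14.6, 31.9 and 19.4 CPM, both aged pools above both young pools, and had a log2 fold of 0.63 ± 0.19 (SE). Ifi27 was the opposite case, lower in both aged pools, with a log2 fold of -0.49 ± 0.17 (SE). Ifitm3 had both aged pools on top and a log2 fold of 0.44 ± 0.26 (SE), which became -0.02 without aged pool B, and the value for Rtp4 went from 0.51 to -0.15 in the same way. Without the cells that carried at least 3 plasma cell markers 0 members were called, as with them, so this count could not fall. The median log2 fold of the members was 0.05 without these cells, against 0.06 with them. Plasma cell RNA outside these cells was not tested.

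**Figure D2:**
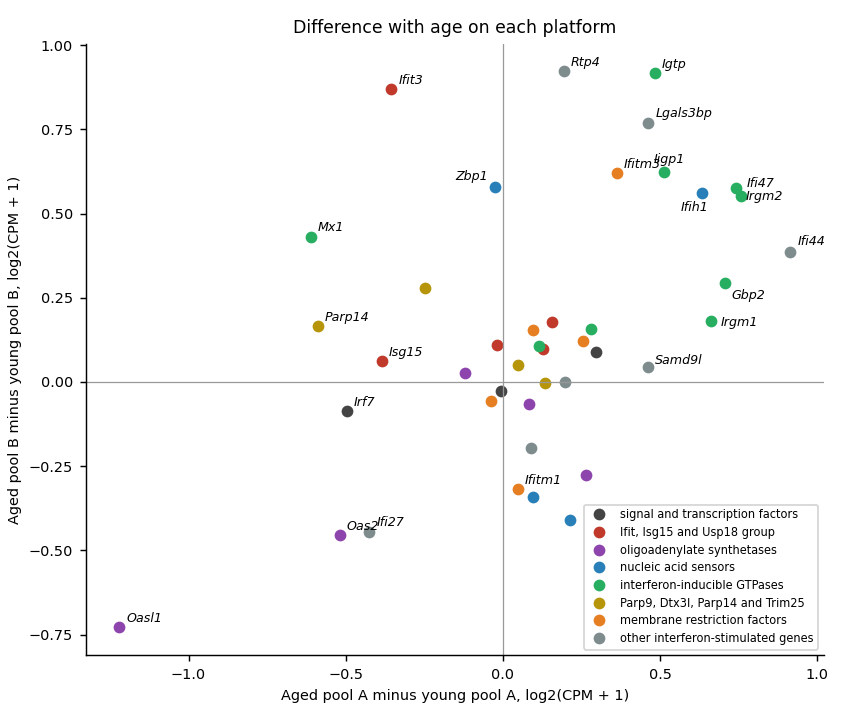
Log2 difference between the aged and the young pool in platform A (x axis) against platform B (y axis), on log2(CPM + 1), with 1 point per member and the genes coloured by role. In the upper right lie 20 members, in the lower left 6, with Oasl1 farthest down, and in the other quadrants 16.

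The genes around the members gave little that passed the age test. Of 45 pathway genes, 32 were tested and 1 was called (beside 2.03% of all genes). The ligands were near absent, with 9 of 10 at 0 UMIs in all pools, which allows up to 3 UMIs each, and Ifng at 5 UMIs in all. None of the 6 receptor genes tested passed, with Ifngr1, a chain of the gamma receptor, at 116, 117, 116 and 87.2 CPM and Ifnar2, a chain of the type I receptor, at 47.2, 58.0, 48.5 and 36.7 CPM. Of the kinases and factors, 0 of 9 tested passed, the highest being Jak1 at 125, 125, 143 and 130 CPM and Irf2, a repressor of the same elements, at 107, 112, 131 and 108 CPM. Of the upstream sensing genes, 0 of 8 tested passed, among them Tmem173 (STING) at 32.9, 37.3, 23.4 and 31.4 CPM and the adaptor Myd88 at 29.8, 23.9, 38.4 and 31.9 CPM. These 3 lists had 5 genes at an unadjusted p under 0.05 (beside 16.0% of all genes).

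Of the 9 inhibitors, Socs3, which blocks cytokine receptors and their kinases, was the exception. It stood at 5.13, 3.84, 58.3 and 15.8 CPM, both aged pools above both young pools. It rose by a log2 fold of 2.76 ± 0.36 (SE) with an adjusted p of 0.0369 by edgeR's quasi-likelihood test. This p ranged from 3.11e-09 to 0.344 over 14 settings. The call was lost without aged pool A (0.344), without aged pool B (0.236), without the pool letter as a block (0.217), with thinned cells (0.0561) and without cells of mixed lineage (0.0539). Without the pool letter as a block, 0 of all 13555 genes passed in the age fit. Ptpn6 and Ptpn2, phosphatases that act on these receptors and kinases, stood at 148, 174, 142 and 138 CPM and at 45.1, 50.4, 43.4 and 42.0 CPM and did not pass.

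The pool letter, which holds facility, batch and mice together, was set beside age in the same fit. The paper gives more reads per cell for young pool B and aged pool A than for young pool A and aged pool B. Read depth thus differed between ages within each letter, in opposite directions, and its part in the folds was not tested. The letter called 1 of 42 members, Irgm1, beside 7.60% of all genes (1030 of 13555), and 7.44% in the lower direction. Irgm1, a GTPase of the vacuole defence, stood at 39.9 and 63.7 CPM in the A pools and at 8.41 and 9.67 CPM in the B pools, and was lower in B by a log2 fold of -2.23 ± 0.18 (SE, adjusted p = 0.0107 by edgeR's quasi-likelihood test). The next lowest folds were those of Parp9, at -0.81, and Ifit2, at -0.54, and the highest those of Oasl1 (0.87), Rtp4 (0.84) and Igtp (0.70), none of which passed. DESeq2 called 4 members, namely Irgm1, Rtp4, Ifitm3 and Ifi27, beside 9.01% of the 11715 genes for which it gave an adjusted p. For 29 of 42 members the fold was towards B, with a median log2 fold of 0.27 against -0.04 over all genes.

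Because the share of stem cell marker cells differed with age, ages were also compared within them. These HSC-like cells carried at least 3 of 8 stem cell markers and fewer than 3 markers of every lineage, and numbered 1957, 859, 2029 and 2533. None of the 41 members tested passed (edgeR's quasi-likelihood test), beside 2.59% of 12479 genes. There were 3 at an unadjusted p under 0.05, beside 13.3% of all genes, and DESeq2 called 0, with 3 at an unadjusted p under 0.05 (beside 6.47%). The median log2 fold was 0.02, the same as over all genes at 2 decimals. The highest folds were those of Lgals3bp (0.67 ± 0.20 SE, adjusted p = 0.197 by edgeR), Ifi47 and Rtp4. The lowest were those of Oasl1 (-1.39), Oas2 (-1.13) and Ifitm1 (-0.44). Socs3, the inhibitor called over whole pools, had a log2 fold of 2.96 ± 0.27 (SE) in HSC-like cells (adjusted p = 0.00423 by edgeR). In the other kept cells its log2 fold was 2.39 ± 0.41 (SE, adjusted p = 0.111 by edgeR). Without the pool letter as a block, 0 of all 12479 genes passed in HSC-like cells.

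The GTPases kept positive folds inside this class, 8 of 8 tested (beside 6566 of 12479 genes), with a median of 0.35 against 0.46 over whole pools. Without young pool B, 5 of 9 were positive (median 0.15), beside 6581 of 13046 genes. Without aged pool A they were 5 of 9 (0.19), beside 5647 of 12691, and without aged pool B 6 of 9 (0.19), beside 6990 of 12952. Ifi47 had a log2 fold of 0.63 there and 0.61 over whole pools, while Iigp1 went from 0.53 to 0.15. Whether age acted differently in HSC-like cells and in the other kept cells was tested as an interaction, in which 1 member of 42 passed, beside 0.856% of 12974 genes. It was Rtp4, at 84.4, 100.3, 97.8 and 202 CPM in HSC-like cells and at 70.1, 80.7, 67.6 and 116 CPM in the others. On platform A the aged to young difference of Rtp4 ran opposite ways in the 2 sets of cells. The log2 difference between the age effects was 0.45 ± 0.10 (SE, adjusted p = 0.0339 by edgeR's quasi-likelihood test). The age effect itself passed in neither set (adjusted p = 0.398 and 0.865 by edgeR). DESeq2 gave the same difference an adjusted p of 0.275, with 0 members called and 4 at an unadjusted p under 0.05 (beside 2.24%). The range over settings was 0.000331 to 0.275. The next highest differences were those of the nucleic acid sensor Zbp1 (0.39) and Isg15 (0.36) and the lowest those of Iigp1 (-0.39), Samd9l (-0.30) and Oasl1 (-0.29), none of which passed. Isg15 passed with classes set at 2 markers (0.56, adjusted p = 0.0383 by edgeR) and Iigp1 with no filter on low counts (-0.39, adjusted p = 0.0492 by edgeR).

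Larger differences lay between classes of cell than between ages. Each class was set beside HSC-like cells of the same pools, by markers that include no member. Erythroid-like cells, with at least 3 of 8 erythroid markers, numbered 163, 43, 81 and 40, and 28 of 40 members tested were lower there (70.0%, beside 24.1% of 11293 genes) and none higher (beside 20.3%). The median log2 fold was -0.76, and -0.10 over all genes. With classes set at 2 markers, 14 were lower, beside 1430 of 11810 genes, and the median was -0.28. Summed over members, HSC-like cells held 6500, 7539, 6371 and 7459 CPM and erythroid-like cells 3296, 3394, 3277 and 3246 CPM. All pools of the one class lay below all pools of the other.

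In erythroid-like cells Oasl2 stood at 11.8, 4.78, 8.59 and 12.6 CPM, against 64.0, 67.8, 55.0 and 53.6 CPM in HSC-like cells. It was lower by a log2 fold of -2.53 ± 0.23 (SE, adjusted p = 7.48e-15 by edgeR's quasi-likelihood test). Iigp1 stood at 6.26, 2.39, 27.5 and 3.15 CPM against 54.6, 47.7, 58.3 and 56.8 CPM, with aged pool A above the other 3 erythroid-like values and the classes not overlapping. Ifit3 had 2 UMIs in erythroid-like cells, a ratio of 0.128 to HSC-like cells (95% exact interval 0.0155 to 0.468, for counting error only). Igtp was at 11.1, 19.1, 15.5 and 15.7 CPM against 43.9, 49.4, 51.6 and 84.4 CPM, and 7 of the 8 GTPases tested were lower. All 4 sensors were lower, whereas none of the Parp9, Dtx3l, Parp14 and Trim25 group was called. The highest folds were those of Oasl1 (0.50), the ligase Trim25 (0.23) and Ifitm2 (-0.08), none of which passed.

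The Ifitm genes parted from each other across classes. Ifitm1 stood at 2465, 3083, 2034 and 2093 CPM in HSC-like cells, at 1033, 965, 1008 and 808 CPM in erythroid-like cells and at 557, 426, 838 and 510 CPM in megakaryocyte-like cells. Its values in HSC-like cells lay above those of both other classes in every pool. Ifitm3 stood at 1535, 1809, 1727 and 2517 CPM in HSC-like and at 481, 494, 587 and 604 CPM in erythroid-like cells. Ifitm2 stood at 978, 1120, 951 and 1054 CPM in the first and at 913, 1036, 830 and 997 CPM in the second, which overlapped. Its log2 folds over the 5 class comparisons lay between -0.17 and 0.07 and none passed. In mitotic cells the value of -0.17 passed in 3 other settings, at -0.21 to -0.19. The lymphoid class held too few cells at 3 markers, but with 2 markers it held 21 and 13 cells in the young pools. There Ifitm2 was lower by a log2 fold of -1.30 ± 0.18 (SE, adjusted p = 3.84e-10 by edgeR's quasi-likelihood test), as were Ifitm1 (-1.74), Ifitm3 (-1.50) and Oasl2 (-3.09). These were 4 of 40 members tested, beside 157 lower of all 10620 genes tested. As a ratio, Ifitm1 counts per Ifitm2 count were 2.52, 2.75, 2.14 and 1.98 in HSC-like cells and 0.591, 0.389, 0.961 and 0.528 in megakaryocyte-like cells.

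Megakaryocyte-like cells numbered 111, 19, 76 and 55, and 23 of 40 members tested were lower there (57.5%, beside 14.8% of 11259 genes), with 1 higher (beside 13.6%) and a median log2 fold of -0.88, against -0.07 over all genes. With 2 markers the median was -0.35, and 20 were lower, beside 1031 of 11742 genes. Ifitm1 was lower by a log2 fold of -2.04 ± 0.07 (SE), Ifi44 by -2.0 ± 0.31 (SE) and Ifit1 by -1.81 ± 0.29 (SE). Irf7 stood at 7.17, 9.56, 10.2 and 7.45 CPM, against 33.0, 29.8, 21.6 and 27.4 CPM, without overlap. Ifit2, an RNA-binding relative of Ifit1, was the 1 member higher, at 13.3, 9.56, 13.5 and 13.03 CPM on 30 UMIs against 7.40, 3.93, 8.89 and 4.52 CPM (log2 fold 0.93 ± 0.35 SE, adjusted p = 0.0336 by edgeR's quasi-likelihood test). That call was lost in all 7 other settings, with adjusted p between 0.0516 and 0.167. The other positive fold was that of Ifi47 (0.09).

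Neutrophil-like cells numbered 297, 69, 199 and 40, and 16 of 40 members tested were lower there (40.0%, beside 12.8% of 11533 genes), with a median log2 fold of -0.46 against -0.06. The count was 7 without young pool A and 9 without young pool B, beside 639 of 11062 and 922 of 12173 genes. With 2 markers 3 were lower, beside 281 of 12353 genes, and the median was -0.14. Ifitm1 (-1.29 ± 0.15 SE), Ifi44 (-1.06 ± 0.25 SE) and Ifit1 (-0.996 ± 0.25 SE) had the lowest log2 folds. Ifi27 was the 1 member higher (beside 15.2%), at 142, 190, 106 and 160 CPM against 118, 169, 97.4 and 125 CPM, higher in every pool though the classes overlapped (log2 fold 0.32 ± 0.09 SE, adjusted p = 0.0181 by edgeR's quasi-likelihood test). That call was lost without young pool A (0.179) and without young pool B (0.0624). Mast and basophil-like cells were few, at 44, 16, 18 and 5, and aged pool B was not used for them. In them 7 of 40 members tested were lower (17.5%, beside 3.39% of 10846 genes) and 0 higher (beside 4.43%), with a median log2 fold of -0.73, or -0.66 with Ifit3 at its bound, against -0.19 over all genes. The count was 3 without young pool A and 3 without young pool B, beside 151 of 10338 and 250 of 11545 genes. With 2 markers it was 2 with a median of -0.16, beside 61 of 11786 genes. Iigp1 had 2 UMIs there, a ratio of 0.0690 to HSC-like cells (95% exact interval 0.00835 to 0.250), Ifit1 had 3 UMIs, a ratio of 0.205 (0.0422 to 0.602), and Ifit3 had none, which allows up to 5.69 CPM.

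Mitotic cells, with at least 3 of 10 mitosis markers, numbered 529, 150, 147 and 263 and were set beside all other kept cells. In them 22 of 41 members tested were lower (53.7%, beside 18.5% of 12675 genes) and 0 higher (beside 20.6%), with a median log2 fold of -0.40 against -0.01. Ifit1 stood at 7.86, 5.09, 6.42 and 5.97 CPM in mitotic cells and at 21.3, 24.7, 22.7 and 27.8 CPM in the others, without overlap. Its log2 fold was -1.82 ± 0.17 (SE), with Ifit3 at -2.52 ± 0.37 (SE, on 10 UMIs) and Ifi44 at -1.69 ± 0.19 (SE). Ifit2 went the other way at 0.42 ± 0.18 (SE), with an adjusted p of 0.0758 by edgeR's quasi-likelihood test. It passed with 2 markers (0.51, adjusted p = 0.0149 by edgeR), where 28 members were lower, beside 2551 of 12848 genes. Ifi47 (0.11) and Samd9l (0.01) were the other positive values among the named members. Mitotic cells were deeper, with medians of 9810 to 12362 UMIs against 5357 to 6345 in HSC-like cells. The pool medians were 6016 to 9476 in erythroid-like, 7679.5 to 11096 in megakaryocyte-like and 6155 to 12299 in neutrophil-like cells. In mast and basophil-like cells of the pools used they were 5353 to 6815.5. The part of depth in the folds of any class was not tested.

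Across the 5 comparisons Ifit1, Oasl2, Iigp1, Gbp2 and Ifitm3 were lower in every one, beside 1.93% of the 10639 genes tested in all 5. Over the 34 other fits of each gene in these comparisons, the call was lost in 0 for Ifitm3, 3 for Oasl2, 5 for Iigp1, 7 for Ifit1 and 8 for Gbp2. DESeq2 called Oasl2 and Ifitm3 in all 5, and with 2 markers Ifitm1 and Ifitm3 were lower in all 5. Another 8 were lower in 4, namely Irf9, Igtp, Gbp3, Ifitm1, Rsad2, Rtp4, Ifi44 and Lgals3bp. The 9 lower in none were Stat2, Usp18, Oasl1, Oas2, Oas3, Mx1, Parp9, Trim25 and Ifitm2, although Mx1 was tested in no comparison and Oas2 in 1. How many of all genes were lower in 4 or in none was not counted, so these counts cannot be set beside them. The comparisons with the 4 lineage classes share the same HSC-like cells. A mitotic cell could also belong to a lineage class or to the HSC-like cells, so the 5 comparisons are not independent. Of the pathway genes, 6 of the 9 kinases and factors tested were lower in erythroid-like cells (beside 24.1% of all genes). Among them were Jak1 (-0.64), Irf1 (-1.62) and Irf2 (-1.29). The same number were lower in megakaryocyte-like cells (beside 14.8% of all genes). The receptor chain Ifngr1 was higher in erythroid-like cells (1.67 ± 0.11 SE) and lower in megakaryocyte-like cells (-0.71 ± 0.13 SE). The inhibitors Socs1, Socs3 and Cish were lower in erythroid-like, megakaryocyte-like, neutrophil-like and mitotic cells.

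**Figure D3:**
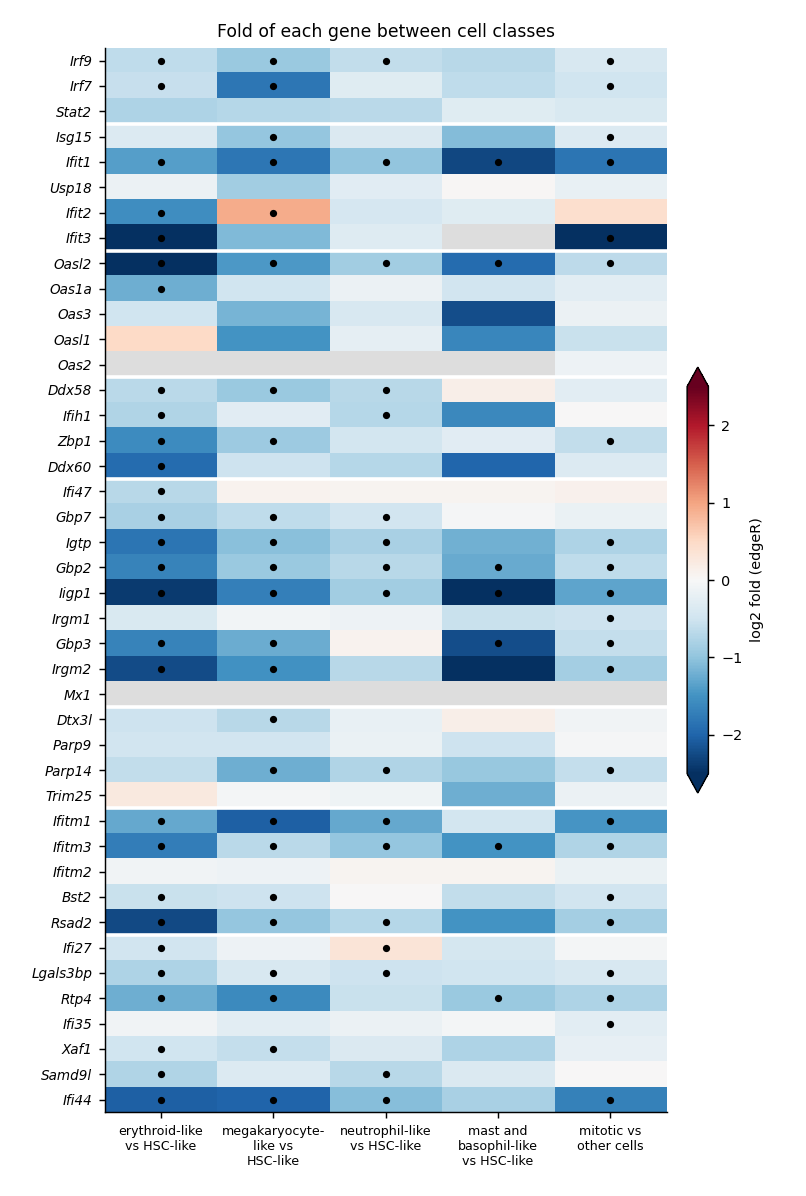
Log2 fold of each member (rows, grouped by role) in 5 class comparisons (columns), erythroid-like, megakaryocyte-like, neutrophil-like and mast and basophil-like cells against HSC-like cells and mitotic against other cells, with colour for the fold and a black dot for an adjusted p under 0.05. Most fields are blue, on the lower side, the row of Ifitm2 stays near 0 in these 5, and grey marks a member that was not tested or had no UMI in the class.

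Cells that carried several of the strongly inducible genes at once were then counted. The 10 core genes were Ifit1, Ifit2, Ifit3, Isg15, Usp18, Rsad2, Oasl1, Oas2, Mx1 and Ifi44, and a cell was called core-high if at least 3 of them had a UMI after thinning to 3000 UMIs, for which 230 shallower cells were left out (0, 50, 176 and 4). There were 230 core-high cells among 14685 (1.57%, 95% exact binomial interval 1.37 to 1.78, for counting error only). No core gene was found in 10764 cells (73.3%), 1 in 3089 and 2 in 602, and 4 cells held 8 of them. Free RNA in droplets gives such UMIs too, and its level was not measured here.

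Core-high cells were 1.83% (1.48 to 2.23), 1.73% (1.23 to 2.37), 1.27% (0.908 to 1.72) and 1.37% (1.04 to 1.78) of cells, both aged pools below both young pools with overlapping intervals. The aged minus young difference was -0.460 percentage points, and -0.562 on platform A and -0.359 on platform B. The exact two-sided permutation test gave p = 0.33, the smallest that 2 pools against 2 allow. With unthinned cells the share was 5.32% and the difference -0.0945 points (exact permutation p = 1), with -1.66 on platform A and 1.47 on platform B. With at least 4 core genes the difference was -0.0502 points (exact permutation p = 0.667), with -0.153 on platform A and 0.0528 on platform B. By class, 142 of 7378 HSC-like cells were core-high (1.92%, 1.62 to 2.26), 5 of 327 erythroid-like cells (1.53%, 0.498 to 3.53) and 10 of 605 neutrophil-like cells (1.65%, 0.795 to 3.02). Of megakaryocyte-like cells 0 of 261 were, with an exact interval of 0 to 1.40%. Among mitotic cells 6 of 1089 were core-high (0.551%, 0.202 to 1.20) and among the others 224 of 13596 (1.65%, 1.44 to 1.88). Of the 6 mitotic ones 5 were from young pool A. By pool the shares were 0.945%, 0%, 0% and 0.380% among mitotic cells and 1.93%, 1.86%, 1.33% and 1.44% among the others. The intervals by class are for counting error in cells pooled over libraries, and no difference between classes was tested.

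The core genes chose these cells, so their own detection there is a description. Isg15 was found in 87.7% of core-high and 9.13% of other cells and Ifit1 in 72.1% and 4.76%, averaged over the 4 pools. Ifit3 had 62.4% of its UMIs in core-high cells and was found in 0.950% of all thinned cells, with a variance of 4.29 times its mean, or 2.33 times without aged pool B, where the highest cell held 24 UMIs. The other 32 members took no part in the choice, and 26 of them were found in a larger share of core-high than of other cells in all 4 pools. How many of all genes did so was not counted. Their ratio of the 2 shares ranged from 0.999 to 6.33 with a median of 2.80, with every cell at the same depth. The median was 1.0 over 2420 genes outside the list. Those genes were kept for being found in at least 10% of core-high cells in every pool, and the members were not, so the 2 medians are of unlike sets. Oas3, an enzyme that makes the RNase L activator, was found in 12.2% of core-high and 1.92% of other cells, Zbp1 in 25.2% and 4.30% and Irf7 in 32.6% and 6.00%. Rtp4 was found in 64.6% and 20.9% and Oasl2 in 47.7% and 13.1%. At the other end Trim25 was found in 6.13% and 4.42%, and Ifitm2 in 94.4% and 94.5%, where the share cannot rise much.

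Among genes outside the list, those with the highest ratio included known targets and parts of the same pathway. The near copy of Iigp1, Gm4951, was found in 36.5% of core-high and 7.77% of other cells, the Isg15 ligase relative Herc6 in 23.0% and 4.99%, and Slfn8, of the schlafen family, in 16.9% and 4.09%. Dhx58 (LGP2), a regulator of the RNA sensors, was found in 19.5% and 5.43%. Slfn2, Tor3a, Trafd1, Trim12c and Sp100 followed with ratios between 2.10 and 3.39.

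**Figure D4:**
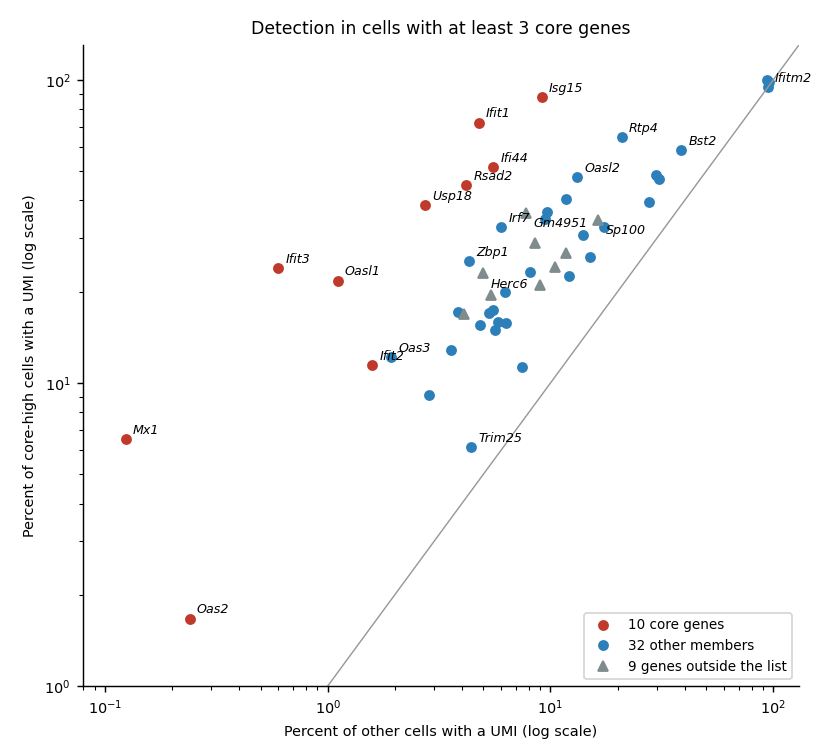
Share of core-high cells (y axis) against share of all other cells (x axis) in which each of the 42 members was found after thinning to 3000 UMIs, in percent on log axes, as means over 4 pools, with core genes and other members as dots of different colours and 9 genes outside the list as triangles. The points lie above the diagonal of equal shares except that of Ifitm2, which is just below it. All Ifitm genes sit close to the diagonal at its upper right end.

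Whether members turned up in the same cells was described by the number of cells that held both, over the number expected within each pool from their shares, for pairs with at least 5 expected. The ratio had a median of 2.71 over 24 core pairs, 1.56 over 68 pairs of a core gene with a GTPase, 1.30 over 28 GTPase pairs and 1.22 over 210 pairs of the remaining members. In HSC-like cells alone the medians were 2.44, 1.40, 1.25 and 1.17. The highest ratio was that of Ifit1 and Ifit3 (48 cells against 8.01 expected, a ratio of 5.99), neighbours on chromosome 19, followed by Ifit3 with Zbp1, on another chromosome (31 against 6.56, a ratio of 4.72), and Irf7 with Ifit3 (36 against 9.13, a ratio of 3.94). Among the GTPases Iigp1 and Irgm2 had the highest, at 2.12. Oas1a with Trim25 had the lowest of all pairs, at 0.690 (24 against 34.8). Pairs with an Ifitm gene had a median of 1.02, as a gene found in nearly every cell can hardly exceed its expected number. The pairs share libraries and cells and are given as a description.

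**Figure D5:**
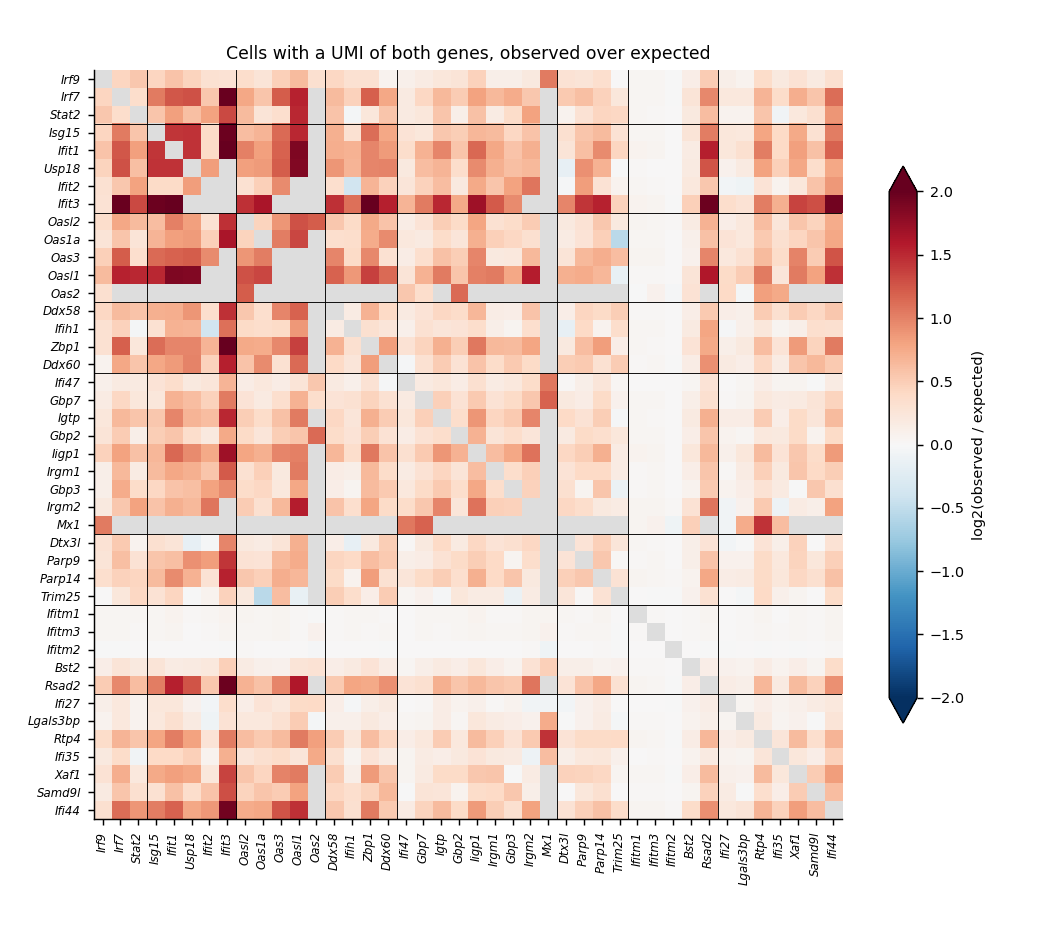
Ratio of observed to expected number of cells that held both genes of a pair (colour, on a log2 scale), for the members in rows and columns ordered by role, in cells thinned to 3000 UMIs. The row of Ifit3 is the darkest, with 5.99 for Ifit1 and Ifit3, the GTPase pairs lie between 1.11 and 2.12, the Ifitm rows are near white, and grey marks pairs with fewer than 5 expected cells.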

How the data were processed

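The authors deposited raw UMI counts of genes by barcode for each of 4 pools of sorted HSPCs, made with Cell Ranger 2.2.0 (the submitters' processing notes name builds mm10 and GRCm38.p4). The sources used here do not name the annotation release. Barcodes outside 2 SD of the pool's mean log UMI count were removed, as in the study, and no other doublet caller was run. Counts were summed per pool, or per pool and class, and tested with edgeR 4.0.16 in R 4.3.3 (TMM, filterByExpr, quasi-likelihood test, Benjamini-Hochberg adjustment over all genes tested, threshold 0.05), with the pool letter as a block for age and the pool as a block for classes. SEs of log2 folds were derived from the F statistic. The letters mark a shared facility and batch of mice, and the deviations of same-letter pools from their age means had a correlation of 0.472 over 13555 genes and 0.583 over the 42 members. Pools hold separate mice. The p-values for age measure the spread between pools that is left once the letter is taken out. With so few pools, that spread was estimated partly over all genes. The p-values for classes and for age by class measure how the class difference varies between pools, since each pool was a block.

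Classes were set on cells thinned to 3000 UMIs. A lineage class carried at least 3 of 8 markers of exactly 1 lineage, and classes with under 10 cells in a pool were not tested there, which left out the lymphoid class at 3 markers. Shares have 95% exact binomial intervals for counting error only, and the floor of a count of 0 is 3 counts. The members and all lists were chosen with earlier results of these data known. Named members are those called with age, the 3 with the highest mean CPM in each role and the 3 with the largest fold each way in each comparison. Named pathway genes are those called and the 2 highest per list. The genes named outside the list are the 10 with the highest detection ratio in core-high cells among those found in at least 10% of them in every pool, of which 1 is not reported here, and any further gene was chosen after its values were seen. Positions are from GENCODE on GRCm38 and promoter windows from RefSeq on GRCm38.p6, matched for 42 and 33 members. The alternatives were DESeq2 1.42.0, no filter on low counts, no block, all barcodes, 1 pool left out, other marker minimums, thinned cells, and the age test without cells of some kinds. The edgeR fits of age over whole pools and in HSC-like cells were tested on simulated data. So were those of age by class and of the erythroid-like and mitotic classes. The other class fits and the steps on single cells were not. Apart from planted changes, the simulated counts had the same mean per gene in all pools, a fixed spread and no difference between letters. They therefore do not show how the fits behave on pools that differ by letter.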

Additional observations from a re-analysis of the deposited data

Results flagged for a closer look

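The age effect on Rtp4 differed between HSC-like cells and the other kept cells by 0.45 on the log2 scale (adjusted p = 0.0339 by edgeR's quasi-likelihood test of the interaction), with 84.4, 100.3, 97.8 and 202 CPM in the first and 70.1, 80.7, 67.6 and 116 CPM in the second (young A and B, then aged A and B). DESeq2 did not call it (adjusted p = 0.275), and the highest value in both sets of cells was that of aged pool B.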

How the results depend on the processing

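With no filter on low counts Oasl1 was the 1 member called with age over whole pools and the 1 in HSC-like cells. All genes called there were 564 higher and 210 lower of 19025, and 606 and 282 of 17897. The pool letter called 2 members, beside 102 genes higher and 1727 lower of 19025. The age by class difference called 2, beside 61 and 159 of 19025. DESeq2 called 4 members for the letter, 0 for age by class, 11 in neutrophil-like cells and 3 in mast and basophil-like cells. Over all genes it called 11 higher and 22 lower for age by class. In neutrophil-like cells these were 1481 and 919, and in mast and basophil-like cells 365 and 93. With at least 2 markers as the minimum for a class 2 members were called for age by class, beside 23 genes higher and 112 lower of 13027. The counts were 14 for erythroid-like, 4 for neutrophil-like and 2 for mast and basophil-like cells. The median log2 folds were -0.279 (erythroid-like), -0.349 (megakaryocyte-like), -0.141 (neutrophil-like) and -0.159 (mast and basophil-like). Leaving out 1 pool at a time gave 23 to 28 members for erythroid-like, 20 to 24 for megakaryocyte-like and 7 to 18 for neutrophil-like cells. It gave 3 to 6 for mast and basophil-like and 16 to 24 for mitotic cells, and a core-high difference of -0.512 to -0.408 points. Over all genes, 2128 to 2438 were lower in these fits for erythroid-like and 934 to 1531 for megakaryocyte-like cells. For neutrophil-like cells 639 to 1394 were lower and 998 to 1837 higher. For mast and basophil-like cells 151 to 282 were lower and for mitotic cells 1730 to 2226. Between 10143 and 12798 genes were tested. The causes of these differences were not tested. Counts over all genes moved too, in neutrophil-like cells from 1471 genes lower in the main fit to 281 with 2 markers. The age fit without the pool letter as a replicate block called 0 of all 13555 genes over whole pools and 0 of 12479 in HSC-like cells. It therefore called 0 members, where the fit with the block also called 0, and could keep no call, that of Socs3 included.

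With 1 pool left out, 27 of 42 members took both signs with age over whole pools and 25 of 41 in HSC-like cells, none past the threshold, and Irgm1 had the widest range (-1.15 to 1.81 over whole pools). In the other settings 8 and 7 members did so, again none past the threshold. The share of all genes that took both signs was not counted. Of the members whose folds were described and changed sign, the range with 1 pool left out for age over whole pools was -0.0162 to 0.851 (Ifitm3) and -0.151 to 1.14 (Rtp4), and in HSC-like cells -0.161 to 0.707 (Ifitm3) and -0.124 to 1.25 (Rtp4). It was -0.00101 to 0.268 (Ifi47) and -0.437 to 0.0863 (Trim25) in megakaryocyte-like cells, -0.0813 to 0.33 (Gbp3) in neutrophil-like cells and -0.0978 to 0.0988 (Samd9l) in mitotic cells. In mast and basophil-like cells it was -0.709 to 0.42 (Ddx58), -0.183 to 0.284 (Dtx3l) and -0.124 to 0.26 (Ifi47). With at least 2 markers the values were 0.513 (Oasl1) and 0.0113 (Oasl2) for age by class, -0.179 (Trim25) in erythroid-like, -0.0314 (Gbp3) in neutrophil-like, -0.159 (Ifi47) and 0.986 (Ifit3) in mast and basophil-like and -0.136 (Samd9l) in mitotic cells. Samd9l in mitotic cells was -0.000452 with DESeq2 and -0.0296 with no filter.

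Removing cells with dendritic or monocyte markers, or with plasma cell markers, both added after seeing the data, left 0 members called with age. With those cells in the count was 0 too, so it could not fall. Fits with 1 pool left out gave the remaining pool of that age the spread of the others. The lymphoid class at 3 markers, and mast and basophil-like cells without aged pool B, gave no separate value. Members at a few CPM, and classes with as few as 16 cells in a pool, rest on few UMIs.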
